A study of Mus musculus with 6 samples.

Results

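The 10 genes described here encode chaperones and other folding factors of the endoplasmic reticulum (ER). They were chosen by name, as Hspa5, Hyou1, Hsp90b1, Dnajb11, Dnajc3, Sdf2l1, Pdia4, Pdia6, Creld2 and Manf, and all 10 were measured among the 21531 genes tested. The choice was made with earlier results of these data known, so counts over the 10 genes are descriptions. Liver RNA of fasted mice and of refed mice was hybridised to Affymetrix Mouse Gene 1.0 ST arrays, which summarise many probes along a gene into a transcript cluster. Both groups were wild type, 12 to 14 weeks old, and had no other allele or agent in their labels. Each condition used 9 mice, and RNA of 3 mice was pooled for each array, which gave 3 fasted and 3 refed arrays. Differences among the mice of a pool are averaged out, so errors and p-values below rest on the spread between pools. How long the mice fasted or fed again, their sex and the time of day are items the sources used here do not give. No array was of mice fed without a prior fast, so a fall during fasting and a rise on refeeding cannot be told apart. Values are log2 levels made by RMA (robust multi-array average), group means are given ± SD (n = 3 pools), and each change is a difference of log2 means, fasted minus refed.

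Secretory and membrane proteins enter the ER unfolded. There the HSP70 protein BiP binds them in cycles set by J proteins, which start ATP hydrolysis, and by exchange factors, which release ADP, while protein disulfide isomerases form and rearrange disulfide bonds. When unfolded proteins build up, the sensors IRE1, PERK and ATF6 start the unfolded protein response (UPR), which raises transcription of many of these factors. Hepatocytes secrete most plasma proteins and therefore carry a large ER. The comparison asks how far the transcripts of this machinery differ between the fasted and the refed liver.

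All 10 genes had lower mean levels in fasted than in refed liver, as did 53.0% of all genes, and 6 of the 10 passed the test. Creld2, Sdf2l1, Manf, Hyou1 and Hspa5 differed by at least 2-fold, and Pdia4 by 1.40-fold. Dnajb11, Dnajc3, Pdia6 and Hsp90b1 did not pass. The test was limma's moderated test in both directions, with p-values adjusted over the 21531 genes by the Benjamini-Hochberg method and a call at an adjusted p under 0.05, by which 1.62% of all genes were called lower in fasted liver. None of the 10 was called higher, against 1.4% of all genes. In 9 of the 10 all 3 fasted values lay below all 3 refed values, which was so for 10.7% of all genes, and at an adjusted p under 0.01 the count was 5 of 10, against 0.585%. The median change of the 10 genes was -0.82 (1.76-fold lower), and that of all genes tested was -0.01. All 10 had a mean level above the median of the genes tested (7.08), so the shares over all genes include many dimmer genes. Tested alone, genes above the median level gave 887 calls of 10765 in either direction, against 651 of 21531 for all genes. In that setting 8 of the 10 genes were called lower. In a whole-tissue sample, fewer cells of a type and less RNA per cell cannot be told apart.

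**Figure D1:**
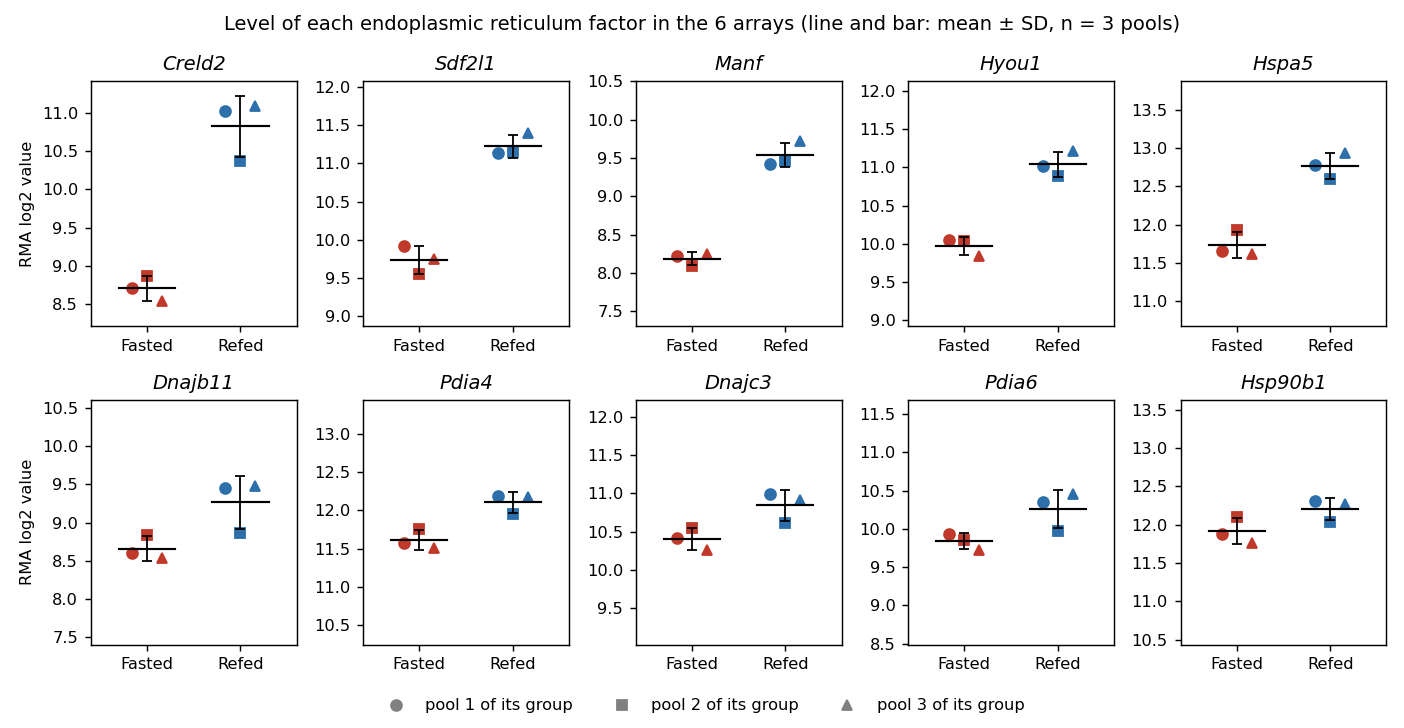
RMA log2 level (vertical axis, with the same span in every panel) of each gene in the 3 fasted arrays (red, left) and the 3 refed arrays (blue, right), with symbols for the pool and a line and bar for the mean ± SD of 3 pools. In every panel but that of Hsp90b1 the 3 fasted points lie below the 3 refed points.

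Several of these genes are textbook targets of the ER stress response element (ERSE), a site with a CCAAT box and a CCACG motif separated by 9 bases, at which NF-Y and ATF6 or XBP1 bind. The RefSeq promoter windows (GRCm38.p6, 250 bases before to 50 after the start site) held an entry for 8 of the 10 genes, while Hyou1 and Manf were not matched. The ERSE, searched as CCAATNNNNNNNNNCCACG on both strands, was found in 5 of these 8 windows, against 39 of all 32851 windows (0.119%). Without its last base (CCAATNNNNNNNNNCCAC) it was found in 6 of 8 windows and in 0.365% of all windows, the added gene being Pdia4. The related ERSE-II (ATTGGNCCACG) was found in Dnajb11 and in 0.0365% of all windows. The UPR element TGACGTGG and the heat shock element GAANNTTCNNGAA were found in 0 of 8 windows, against 0.676% and 0.603% of all windows. The CCAAT box, which the ERSE contains and the ERSE-II holds on its other strand, was in all 8 windows and in 37.4% of all windows. The matches are shown in the reading direction of the motif, with the letters fixed by its search pattern in capitals.
Hspa5, ERSE: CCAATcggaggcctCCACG
Creld2, ERSE: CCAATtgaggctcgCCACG
Dnajc3, ERSE: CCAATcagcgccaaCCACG
Pdia6, ERSE: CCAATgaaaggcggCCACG
Hsp90b1, ERSE farther from the start: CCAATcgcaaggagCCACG
Hsp90b1, ERSE nearer to the start: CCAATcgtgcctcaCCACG
Pdia4, ERSE without its last base: CCAATcacgggctgCCAC
Dnajb11, ERSE-II: ATTGGcCCACG
The ERSE of Hspa5 began 65 bases before the start site, that of Pdia6 98, that of Dnajc3 105 and that of Creld2 126 bases before it. Hsp90b1 held 2, beginning 212 and 107 bases before the start. The ERSE-II of Dnajb11 lay after the start site, at bases 8 to 18 counted from the first transcribed base. The matches of Creld2 and Pdia4 and the nearer match of Hsp90b1 lay on the strand opposite to the gene. A match describes the letters of a window and is not a measured site of binding. Several of these genes were known ERSE targets beforehand, so their high share was likely before the search and serves as a description.

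Genes with an ERSE stood on both sides of the threshold. Of the 5 genes with an ERSE, Creld2 and Hspa5 were called lower and Dnajc3, Pdia6 and Hsp90b1 were not, and Sdf2l1, which had no match, was called lower. To show this contrast, the 150 bases before the start site are given for the 3 genes with a window and the largest changes, with the fixed letters of the ERSE in capitals in Creld2 and Hspa5 and the CCAAT boxes (read on either strand) in capitals in Sdf2l1.
Creld2, chr15:88819496-88819645, plus strand: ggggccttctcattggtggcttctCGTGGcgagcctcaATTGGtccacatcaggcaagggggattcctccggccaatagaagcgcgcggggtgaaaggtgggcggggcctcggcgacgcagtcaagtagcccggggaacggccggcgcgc
Sdf2l1, chr16:17132384-17132533, minus strand: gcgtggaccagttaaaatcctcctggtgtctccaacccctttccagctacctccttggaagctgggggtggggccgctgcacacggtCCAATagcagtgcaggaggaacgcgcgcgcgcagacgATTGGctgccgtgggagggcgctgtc
Hspa5, chr2:34771940-34772089, plus strand: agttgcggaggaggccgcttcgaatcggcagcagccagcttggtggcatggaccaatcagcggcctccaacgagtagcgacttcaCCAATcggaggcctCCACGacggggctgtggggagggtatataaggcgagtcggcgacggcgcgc
Over the whole array, 24 tested genes had an ERSE in a window, of which 7 were called lower and 0 higher by limma, against 267 lower and 239 higher of the 16005 tested genes with any window. Leaving out the 5 members, 5 of 19 were called lower, namely Derl3, Syvn1, Alg12, Acnat2 and Ero1lb, and the median change of the 19 was -0.05. The windows of Creld2 and Alg12 overlap on opposite strands of chromosome 15, so these 2 genes share one ERSE. Alg12, a mannosyltransferase of N-glycan assembly, changed by -1.25 (8.61 in fasted and 9.86 in refed liver, limma adjusted p = 0.000232). Acnat2, an acyl-CoA amino acid N-acyltransferase, changed by -1.10 (adjusted p = 0.00732), a call lost without Fasted 1 (0.0534). Both were named after their values were seen.

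BiP and its 2 large partners come first by role. Hspa5 (transcript cluster 10471586, NCBIM37 chromosome 2, 34627610 to 34632049, plus strand) encodes BiP, the HSP70 of the ER lumen and the repressor of all 3 UPR sensors. It was at 11.66, 11.94 and 11.62 in fasted liver, against 12.78, 12.60 and 12.93 in refed liver. The lowest refed array lay 0.66 above the highest fasted array, and the means were 11.74 ± 0.17 in fasted and 12.77 ± 0.17 in refed liver. The change was -1.03 (95% interval -1.29 to -0.77), or 2.04-fold lower, with a limma adjusted p of 0.00124. Hyou1 (10584712, chromosome 9, 44187626 to 44200452, plus strand) encodes an HSP110-type protein that acts as an exchange factor of BiP and as a holdase. Its levels were 10.05, 10.04 and 9.84 in fasted liver, against 11.01, 10.89 and 11.21 in refed liver. The groups were 0.85 apart at their nearest values, and Hyou1 was 2.09-fold lower in fasted liver (-1.06, -1.30 to -0.83, adjusted p = 0.000709), with means of 9.97 ± 0.12 in fasted and 11.04 ± 0.16 in refed liver.

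Hsp90b1 (10371482, chromosome 10, 86153585 to 86168195, minus strand) encodes the HSP90 of the ER, which folds integrins, Toll-like receptors and other clients downstream of BiP. It stood at 11.88, 12.10 and 11.76 in fasted liver, against 12.31, 12.04 and 12.27 in refed liver. It was the only one of the 10 genes whose groups overlapped, because Refed 2 lay below Fasted 2. The means were 11.91 ± 0.17 in fasted and 12.20 ± 0.14 in refed liver. The change of -0.29 (-0.54 to -0.04, limma adjusted p = 0.248) did not pass. Its promoter was also the only one of the 8 with 2 matches of the ERSE as searched, and sites with other mismatches were not searched. Hsp90b1 passed in none of the 16 other settings, and its change lay between -0.38 and -0.22 in them.

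The J proteins and their partner differed among themselves. Sdf2l1 (10438098, chromosome 16, 17130231 to 17132458, minus strand) encodes a small ER protein that joins the J protein encoded by Dnajb11 in a complex and keeps clients of BiP soluble. It was at 9.92, 9.55 and 9.75 in fasted liver, against 11.13, 11.14 and 11.40 in refed liver. These values left a gap of 1.21 between the groups, and the means were 9.74 ± 0.18 in fasted and 11.22 ± 0.15 in refed liver. The change was -1.49 (-1.74 to -1.23), or 2.80-fold lower, with a limma adjusted p of 0.000139. Dnajb11 itself (10434675, chromosome 16, 22857937 to 22879707, plus strand), the J protein that brings nascent clients to BiP, was at 8.61, 8.84 and 8.53 in fasted liver, against 9.45, 8.87 and 9.48 in refed liver. Refed 2 lay only 0.03 above Fasted 2, while the other 2 refed arrays lay well above all fasted arrays. The means were 8.66 ± 0.16 in fasted and 9.27 ± 0.35 in refed liver, and the change of -0.61 (-0.95 to -0.26, adjusted p = 0.067) did not pass. Without Refed 2 it was -0.81 and passed (adjusted p = 0.00249).

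Dnajc3 (10417034, chromosome 14, 119337209 to 119379121, plus strand) encodes an ER J protein that also inhibits the kinase PERK. Its levels were 10.41, 10.54 and 10.25 in fasted liver, against 10.99, 10.61 and 10.92 in refed liver. Here too the groups did not overlap, and the gap between Fasted 2 and Refed 2 was 0.07. The means were 10.40 ± 0.15 in fasted and 10.84 ± 0.20 in refed liver, and the change of -0.44 (-0.70 to -0.18, limma adjusted p = 0.083) did not pass. Without Refed 2 it was -0.55 and passed (adjusted p = 0.021). This transcript cluster is of a cross-hybridising type, so other transcripts may add to its signal, and a second cluster annotated at the same position was not analysed here. The other 9 genes were each measured by a cluster of a type that does not cross-hybridise.

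Of the 2 protein disulfide isomerases, 1 passed. Pdia4 (10544525, chromosome 6, 47746140 to 47763511, minus strand) encodes an isomerase with thioredoxin-like domains that works in the chaperone complex around BiP. It was at 11.57, 11.75 and 11.51 in fasted liver, against 12.18, 11.95 and 12.18 in refed liver. The groups were 0.19 apart, with means of 11.61 ± 0.13 in fasted and 12.10 ± 0.14 in refed liver. The change of -0.49 (-0.72 to -0.26) passed with a limma adjusted p of 0.0283, and the call was lost without Fasted 1 (0.126), Fasted 3 (0.0741), Refed 1 (0.099) or Refed 3 (0.113). Pdia6 (10394735, chromosome 12, 17273401 to 17291576, plus strand) encodes an isomerase that binds BiP and damps signalling by IRE1. Its levels were 9.94, 9.86 and 9.73 in fasted liver, against 10.35, 9.97 and 10.45 in refed liver. Refed 2 again stood nearest to the fasted arrays, 0.03 above Fasted 1. The means were 9.84 ± 0.11 in fasted and 10.26 ± 0.25 in refed liver, and the change of -0.42 (-0.69 to -0.14, adjusted p = 0.121) did not pass with all arrays but did without Refed 2 (-0.56, adjusted p = 0.0146).

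The 2 small ER factors that can also leave the cell were both called. Creld2 (10426098, chromosome 15, 88650076 to 88657113, plus strand) encodes a cysteine-rich protein with EGF-like domains whose transcript is induced by ER stress. It was at 8.71, 8.87 and 8.54 in fasted liver, against 11.02, 10.37 and 11.09 in refed liver. Even its lowest refed value, that of Refed 2, lay far above its highest fasted value. The means were 8.71 ± 0.16 in fasted and 10.83 ± 0.40 in refed liver, and the change was -2.12 (-2.49 to -1.74), or 4.34-fold lower (limma adjusted p = 0.000181). Manf (10596575, chromosome 9, 106789746 to 106794361, minus strand) encodes a factor that binds BiP in the ER and is secreted when ER calcium falls. It was at 8.22, 8.08 and 8.24 in fasted liver, against 9.43, 9.47 and 9.73 in refed liver. Manf had the smallest fasted SD of the 10 genes, at 8.18 ± 0.08 in fasted and 9.54 ± 0.16 in refed liver, and its change was -1.36 (-1.58 to -1.13), or 2.56-fold lower (adjusted p = 0.000125).

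In order of change, Creld2 was followed by Sdf2l1, Manf, Hyou1, Hspa5, Dnajb11, Pdia4, Dnajc3, Pdia6 and Hsp90b1. The interval of Creld2 ended just below that of Sdf2l1, the intervals of each later gene and the next overlapped, and differences between the changes of 2 genes were not tested. The calls of Creld2, Sdf2l1, Manf, Hyou1 and Hspa5 held in all 16 other settings, which included leaving out each array. Over these settings the change of Creld2 lay between -2.35 and -1.99, that of Sdf2l1 between -1.58 and -1.39, that of Manf between -1.42 and -1.27, that of Hyou1 between -1.14 and -0.98 and that of Hspa5 between -1.13 and -0.95.

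The arrays of a group had a common order over these genes. Refed 2 was the lowest refed array for 8 of the 10 genes and lay below the refed mean for all 10, by 0.22 on average, while Refed 3 was the highest for 7 and above the mean for all 10, by 0.16. Among the fasted arrays, Fasted 3 was the lowest for 8 genes (0.10 below the fasted mean on average) and Fasted 2 the highest for 6 (0.08 above it). Sdf2l1 and Manf departed from this order in part, with Fasted 2 their lowest fasted array and Refed 1 their lowest refed array. Refed 3 was still the highest refed array for both. Averaged over all genes tested, the largest departure of an array from its group mean was 0.0209, in Fasted 3. Departures up and down cancel in this average, so it cannot show whether the order is particular to the 10 genes. Refed 2 and Fasted 3 were also set apart from the other 4 arrays by the second principal component of all genes (26.8% of the variance), and array weights estimated by limma were lowest for Fasted 3 (0.49) and Refed 2 (0.75). The mean log2 level of 4 erythroid markers was 8.61 to 8.73 in the fasted arrays, and 9.18 in Refed 2 beside 8.62 and 8.66 in the other refed arrays. The part of this difference in the lower values of Refed 2 was not tested. Without Refed 2, limma called 9 of the 10 genes, all but Hsp90b1. Without Fasted 1, Fasted 3, Refed 1 or Refed 3 it called 5, without Fasted 2 it called 6, and without both Fasted 3 and Refed 2 it called 8.

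**Figure D2:**
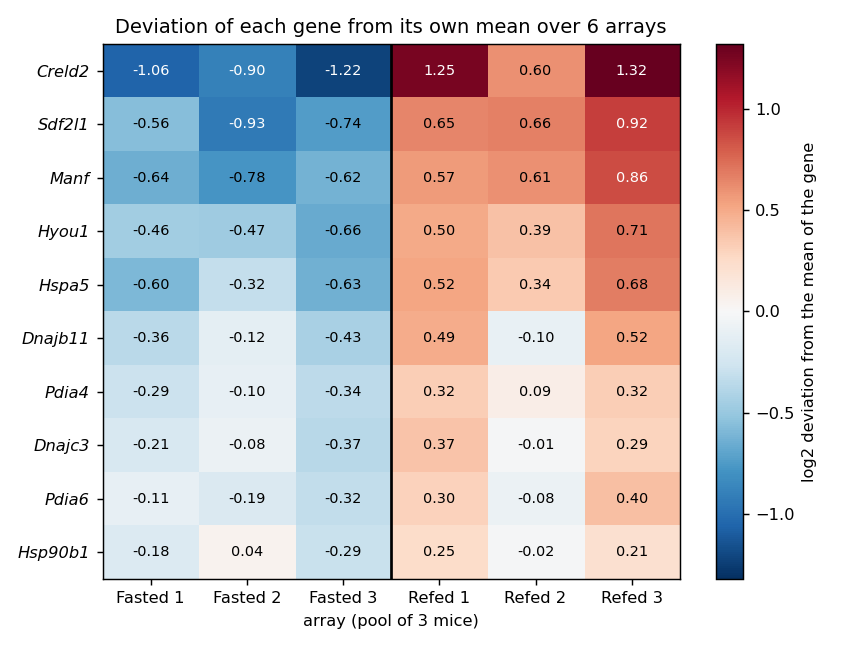
Log2 deviation of each gene (rows, by size of change) from its own mean over the 6 arrays (columns, fasted left of the line and refed right of it), with blue for lower and red for higher values. Refed 2 is paler than Refed 1 and Refed 3 for most genes, as in Creld2 at 0.60 beside 1.25 and 1.32, and Hsp90b1 in Fasted 2 (0.04) is the only fasted cell above 0.

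**Figure D3:**
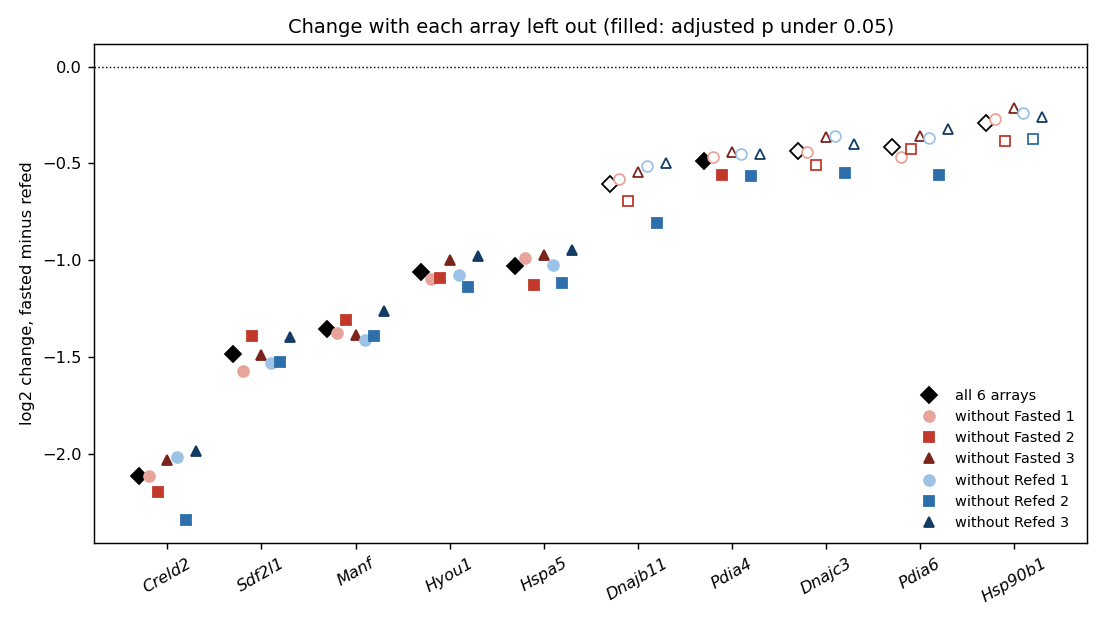
Change of each gene on the log2 scale (vertical axis, fasted minus refed) with all 6 arrays (diamond) and with each array left out in turn, filled where limma's adjusted p was under 0.05. All points lie below 0, Creld2 to Hspa5 are filled throughout, and Dnajb11, Dnajc3 and Pdia6 are filled only without Refed 2.

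Each member has relatives outside the ER or in other parts of the secretory pathway, of which some were called and others not. Of 15 measured relatives in the cytosol or mitochondria, 7 were called lower and 0 higher in fasted liver by limma, with a median change of -0.45. The largest of these changes was that of Hsph1, the cytosolic HSP110 and a relative of Hyou1, at 8.03, 8.30 and 7.83 in fasted liver, against 9.95, 9.92 and 10.15 in refed liver (-1.95, -2.22 to -1.68, adjusted p = 5.1e-05). Its groups were far apart, as were those of the inducible HSP70 gene Hspa1a (-1.54, adjusted p = 6.6e-05) and the inducible cytosolic HSP90 gene Hsp90aa1 (-1.50, adjusted p = 0.000566). Hspa4l (-0.77), a second HSP110, the J protein gene Dnajb1 (-0.73), the constitutive HSP70 gene Hspa8 (-0.53) and the constitutive HSP90 gene Hsp90ab1 (-0.38) were called too. The clusters of Hspa1a, Hsp90aa1 and Hspa8 are of a cross-hybridising type. The call of Dnajb1 was lost without Fasted 1 (0.0543), as was that of Hspa8 (0.066), and that of Hsp90ab1 was lost without any of the 6 arrays (adjusted p of 0.0597 to 0.127). Without Fasted 1, 4 of the 15 were called. The mitochondrial chaperones did not pass, with 11.86 ± 0.09 in fasted and 11.83 ± 0.03 in refed liver for the HSP70 gene Hspa9 (0.03, -0.16 to 0.22) and a change of 0.05 (-0.15 to 0.25) for the HSP90 gene Trap1. Dnaja1 (-0.46, also cross-hybridising), Dnajb4 (-0.45), Hspa2 (-0.32), Hspa4 (-0.13), Dnaja2 (0.07) and Dnajc7 (0.10) did not pass either, with adjusted p of 0.0888 or more. Dnaja1 did pass on its brightest cluster that does not cross-hybridise (-0.60, adjusted p = 0.0144), and without Fasted 2 both Dnaja1 (-0.61, 0.0128) and Dnajb4 (-0.57, 0.0471) passed.

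The nearest relatives of 3 members were measured as well. Creld1, the paralogue of Creld2, stood at 9.06, 8.70 and 9.03 in fasted liver, against 9.15, 8.99 and 9.24 in refed liver, a change of -0.20 (-0.46 to 0.05) that did not pass. Its groups overlapped, unlike those of Creld2. Cdnf, the paralogue of Manf, averaged 5.86 ± 0.09 in fasted and 5.81 ± 0.09 in refed liver (0.05, -0.15 to 0.25), and Sdf2, the paralogue of Sdf2l1, at 8.35 ± 0.06 in fasted and 8.39 ± 0.03 in refed liver (-0.04, -0.22 to 0.14). Neither passed (limma adjusted p of 0.916 and 0.931). In each of the 3 pairs the interval of the paralogue lay wholly above that of the member, although the difference between them was not tested. Cdnf lay below the median level of the genes tested (7.08), so a lower level of its transcript could be hard to detect. Hspa13, an HSP70-like ATPase of the secretory pathway, was at 8.71, 8.79 and 8.46 in fasted liver, against 9.60, 9.26 and 9.81 in refed liver, and was called lower (-0.90, adjusted p = 0.00609).

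**Figure D4:**
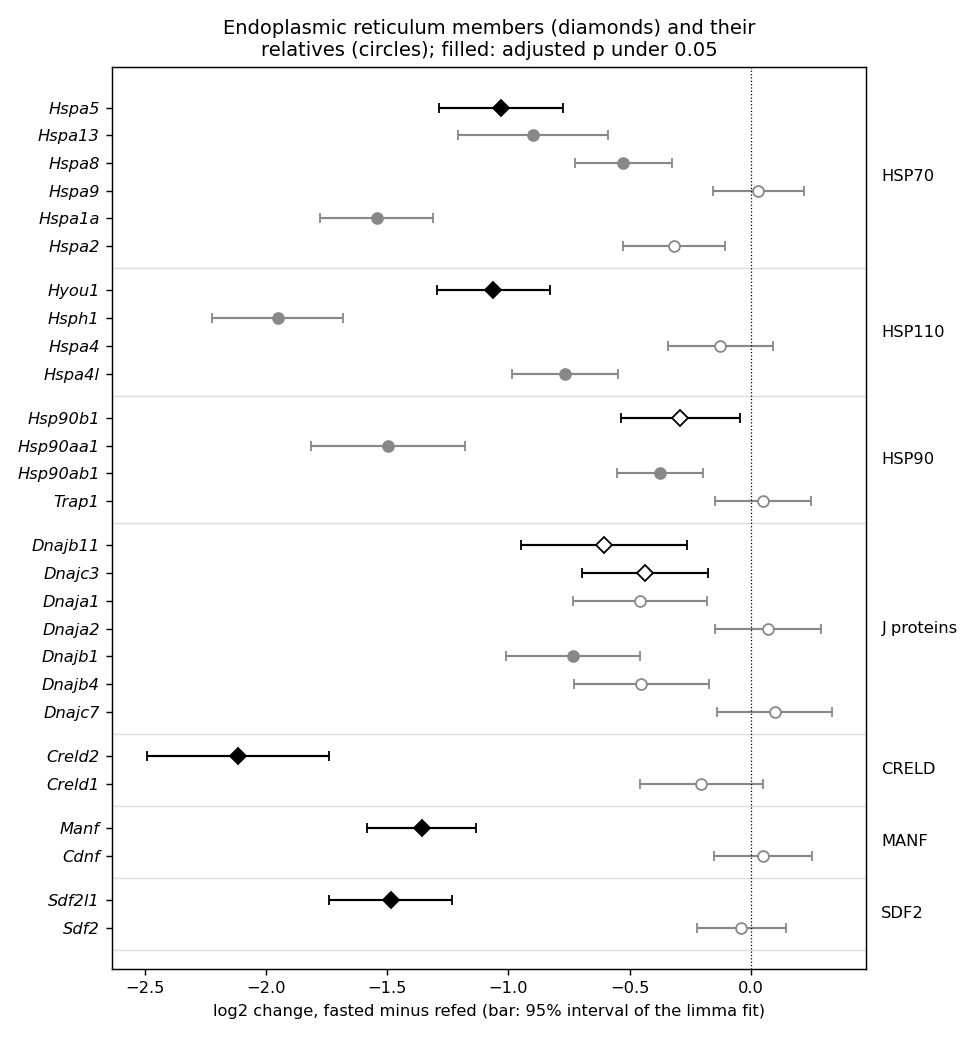
Log2 change (horizontal axis, fasted minus refed) with its 95% interval from limma for each member with listed relatives (black diamonds) and for the relatives (grey circles), by family, filled where the adjusted p was under 0.05. Creld2, Manf and Sdf2l1 lie at -2.12, -1.36 and -1.49, and Creld1, Cdnf and Sdf2 between -0.20 and 0.05.

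The other folding machinery of the ER was followed through lists of genes named by function. Among 19 measured genes of oxidative folding and the PDI family, 4 were called lower and 0 higher, and the median change was -0.15. These were Ero1lb (-0.66, limma adjusted p = 0.0138) and Ero1l (-0.47, 0.0337), the oxidases that recharge disulfide isomerases, Txndc11 (-0.51, 0.0217), a thioredoxin-domain protein, and Pdia5 (-0.44, 0.0295). Each of these calls was lost without some single arrays, and the count was 1 without Fasted 1 or Fasted 3, 2 without Fasted 2 and 0 without Refed 1 or Refed 3. P4hb, the founding disulfide isomerase, was at 12.34, 12.45 and 12.23 in fasted liver, against 12.40, 12.23 and 12.46 in refed liver, with overlapping groups and a change of -0.02 (-0.24 to 0.19). Pdia3, the isomerase that works with the lectin chaperones, changed by -0.40 and did not pass (adjusted p = 0.121).

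Of 14 genes for lectin chaperones and glycoprotein quality control, 2 were called lower and 0 higher, with a median change of -0.20. Both calls, of Edem2 (-0.45, limma adjusted p = 0.0259), which helps to trim mannose from misfolded glycoproteins, and of Uggt1 (-0.46, 0.0294), the glucosyltransferase that returns unfolded glycoproteins to the lectins, depended on single arrays, since 0 of the 14 were called without Fasted 1, Fasted 2, Refed 1 or Refed 3 and 1 without Fasted 3. The lectin chaperones themselves did not pass. Calr averaged 12.18 ± 0.05 in fasted and 12.35 ± 0.08 in refed liver (-0.17, -0.37 to 0.02), and Canx at 12.55 ± 0.04 in fasted and 12.64 ± 0.08 in refed liver (-0.09, -0.28 to 0.10). Both carried an ERSE in their promoter window. Of 9 other co-chaperones and exchange factors of BiP, 2 were called lower and 0 higher, with a median of -0.19. They were Hspa13, given above, and Dnajb9, a J protein that also restrains IRE1, at 10.54, 10.61 and 10.30 in fasted liver, against 11.53, 11.30 and 11.51 in refed liver (-0.96, adjusted p = 0.00119). Both calls held when any array was left out. Sil1, the other exchange factor of BiP, changed by -0.02 (-0.21 to 0.16), beside -1.06 for Hyou1. None of 9 ER prolyl isomerases and the collagen chaperone Serpinh1, counted together, passed in limma (2 at an unadjusted p under 0.05), and their median change was -0.02.

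Steps before and after folding were represented as well. Of 20 genes of the translocon and the signal peptidase, 5 were called lower and 0 higher, with a median change of -0.25. They were Srprb (-0.83, limma adjusted p = 0.00279), a subunit of the signal recognition particle receptor, Ssr1 (-0.56, 0.00546) and Ssr2 (-0.41, 0.0337) of the translocon-associated complex, and Spcs2 (-0.69, 0.0152) and Sec11a (-0.50, 0.0182) of the signal peptidase. The count was 2 without Fasted 1, Refed 1 or Refed 3, 3 without Fasted 3 and 8 without Refed 2. Of 21 genes of ER-associated degradation, 6 were called lower and 0 higher, with a median of -0.19. Syvn1, the ubiquitin ligase of this pathway, was at 10.20, 9.99 and 10.14 in fasted liver, against 11.50, 11.46 and 11.52 in refed liver (-1.38, -1.58 to -1.19, adjusted p = 5.2e-05), and these groups were more than 1 log2 unit apart. Derl3, which helps to move misfolded proteins out of the ER, was at 8.03, 7.68 and 7.98 in fasted liver, against 9.30, 9.16 and 9.88 in refed liver (-1.55, adjusted p = 0.00105). Dnajb9, Edem2, the ubiquitin-conjugating enzyme gene Ube2g2 (-0.65, adjusted p = 0.00954) and Sel1l, the partner of Syvn1 (-0.39, adjusted p = 0.0482), were the others. The count was 3 without Fasted 1, and without it Ube2g2 (0.0569), Edem2 (0.0656) and Sel1l (0.125) did not pass. Herpud1, another component of the ligase complex, changed by -0.17 (-0.35 to 0.01) and did not pass.

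Of 18 UPR sensors and transcription factors, 3 were called lower and 0 higher by limma, with a median change of -0.12. Eif2ak3, which encodes PERK, was at 7.87, 7.92 and 7.61 in fasted liver, against 8.49, 8.60 and 8.47 in refed liver (-0.72, adjusted p = 0.00372). Creb3l2, a membrane-bound transcription factor of the secretory pathway, changed by -0.63 (adjusted p = 0.00352), and Atf6b by -0.53 (adjusted p = 0.0108, and 0.0506 without Refed 3). The groups of these 3 genes did not overlap. The transcript of Xbp1, the factor activated by IRE1 through splicing of its mRNA, was at 11.60, 11.64 and 11.62 in fasted liver, against 11.95, 11.87 and 11.98 in refed liver. Its groups were tight and apart, but the change of -0.31 (-0.49 to -0.13) had an adjusted p of 0.0759. It passed with array weights (0.0422), among genes above the median level (0.0352), with an intensity trend (0.0248) and after quantile normalisation (0.0472). Ddit3 changed by -0.42 (-0.65 to -0.19) and did not pass with all arrays (adjusted p = 0.0591), and its groups did not overlap. Like Xbp1, Ddit3 passed in each of these settings, and it also passed without Refed 2 (0.0233). Ern1, which encodes IRE1 (-0.22, -0.43 to -0.01), and Atf6 (0.00, -0.24 to 0.23) did not pass. The clusters report the summed signal of a gene, so spliced Xbp1 and cleaved ATF6 were not measured. The lists of this and the preceding 2 paragraphs share Edem2, Dnajb9 and a few other genes, which are counted in each.

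**Figure D5:**
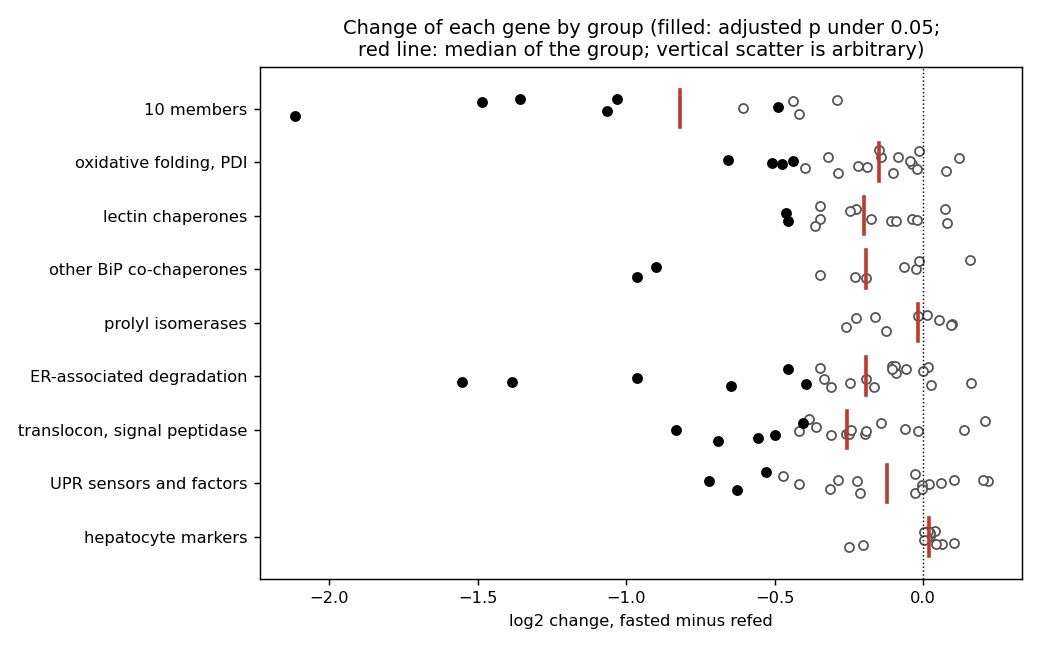
Log2 change (horizontal axis, fasted minus refed) of each measured gene in the 10-gene group, in 7 other groups of ER function and among hepatocyte markers, filled where limma's adjusted p was under 0.05, with a red line at the median of each group. The median is -0.82 for the 10 genes and between -0.25 and -0.02 for the other groups of ER function, and hepatocyte markers centre on 0.02. The groups were chosen with earlier results of these data known, so the medians are descriptions. The relatives in the cytosol or mitochondria, with a median of -0.45, are not shown.

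The 10 genes followed one another over the arrays to different degrees. The Pearson correlation of a gene with the mean of the other 9, each centred on its own mean, was 0.998 for Creld2, 0.992 for Hyou1 and 0.989 for Hspa5, and lowest for Pdia6 (0.908) and Hsp90b1 (0.854). These are descriptions over 6 arrays that share the contrast of fasted and refed liver. By the same measure the genes outside the group with the most similar pattern included Mettl1, a tRNA methyltransferase (0.999), Zfand2a, a zinc finger protein (0.995), Upf1, a helicase of nonsense-mediated decay (0.994), Cyp26a1, a retinoic acid hydroxylase (0.993), Xbp1 (0.993), Slc16a6, a member of the monocarboxylate transporter family (0.992), and Slc35b4, a nucleotide sugar transporter (0.992). A similar pattern did not mean a similar size. Mettl1 averaged 7.44 ± 0.12 in fasted and 8.27 ± 0.16 in refed liver (-0.83), close to the median of the 10 genes, while Cyp26a1 changed by -1.62 and Upf1 by only -0.18, which did not pass (limma adjusted p = 0.345).

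Across all genes, 651 of 21531 (3.02%) were called, 349 lower and 302 higher in fasted liver, and array medians over the deposited clusters lay between 6.73 and 6.81. The 12 measured hepatocyte markers had mean log2 levels of 13.22 to 13.28 in fasted and 13.22 to 13.28 in refed arrays, and 0 were called. The brightest of them had a mean of 14.14, near the array maxima of 14.22 to 14.34, where a difference may be hard to see. Plasma cells and pancreatic acinar cells, which also carry a large ER, were checked through their markers. The 4 plasma cell markers averaged 6.73 to 6.99 in fasted and 6.85 to 6.95 in refed arrays, and the 10 acinar markers 6.46 to 6.68 in fasted and 6.48 to 6.60 in refed arrays, with 0 called in either list. Of these, 3 plasma cell and 6 acinar markers lay below the median level of all genes, so differences in them may be hard to see. The 9 Kupffer cell markers all had negative changes, with means of 8.21 to 8.27 in fasted and 8.33 to 8.60 in refed arrays, and 1 was called, Vsig4 (-0.71, limma adjusted p = 0.00904, and 0.0543 without Fasted 1). Of the 6 cholangiocyte markers 1 was called lower, Sox9 (-0.53, adjusted p = 0.0141, lost without Fasted 1, Fasted 2 or Refed 3, with 0.0543 to 0.0667). The 8 endothelial markers had 7 positive changes, with a median change of 0.21 beside -0.18 for the Kupffer markers, and means of 8.85 to 8.92 in fasted and 8.58 to 8.88 in refed arrays, and 0 were called (4 at an unadjusted p under 0.05). None of the 8 stellate, 8 leukocyte and 4 erythroid markers was called. The part of Kupffer and endothelial cells in the values of the 10 genes was not tested.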

How the data were processed

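Liver RNA pools of fasted and refed wild-type mice (3 arrays each) were measured on Affymetrix Mouse Gene 1.0 ST arrays. The authors deposited log2 values of 34760 transcript clusters, for which the submitters' processing notes name RMA and Affymetrix Expression Console 1.3.1.187. A second deposited table gave symbols, NCBIM37 positions and cross-hybridisation types for 28350 clusters. Its columns of fold changes and p-values of livKOR against livWTR hold the authors' own comparison and were not used, nor were 12 columns per array tied to no labelled sample. Of 27619 clusters in both tables, 24446 had 1 symbol. Of these, 558 (542 cross-hybridising) were left out because their refed mean lay over 1 log2 unit from the authors' livWTR mean on the log2 scale, a filter chosen in earlier work with the values in view. The brightest cluster stood for each of the 1561 genes with several, which left 21531 genes, with no filter on dim genes. The signal over background cannot be read from summarised values, and the number of arrays limits precision.

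The 2 conditions were compared in R 4.3.3 with limma 3.58.1 (lmFit, eBayes, group as the only term), with Benjamini-Hochberg adjustment over 21531 genes. For each gene, limma combined its own variance (4 residual degrees of freedom) with a prior taken from all genes tested (6.86 degrees of freedom). The code was checked on simulated data. Tables were joined with pandas 2.3.3. Genes named are the 10 members, all their listed relatives, up to 4 genes of each other list by adjusted p, each gene that makes up a count of 5 or fewer, and the 8 genes most alike in pattern, of which 1 is not reported here. P4hb, Pdia3, Calr, Canx, Sil1, Herpud1, Xbp1, Ern1, Atf6, Sel1l, Serpinh1, Vsig4 and Sox9 were named beyond this rule. The members, lists and settings were chosen with earlier results of these data known, so counts over lists are descriptions without a test. The 16 other settings were a replicate block, each array left out, Fasted 3 and Refed 2 both left out, no identifier filter, clusters that do not cross-hybridise, genes above the median level, a variance prior from all clusters, an intensity trend with a robust prior, array weights, quantile normalisation and median centring. A threshold of 0.01 was also applied. Promoter windows were matched by symbol.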

Additional observations from a re-analysis of the deposited data

How the results depend on the processing

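No result named in the text reversed its direction after a call in any setting, and 0 of the 10 members were called higher in any. The number of genes called, 651 with all arrays, was 145 with a variance prior taken from all clusters, 413 without both Fasted 3 and Refed 2, 234 at an adjusted p under 0.01 and 266 (without Fasted 1) to 616 (without Refed 2) with 1 array left out. It was 918 with array weights, 887 of 10765 genes above the median level, 818 with the intensity trend and 794 after quantile normalisation. Calls added in these settings were thus not limited to the members. The number of members called lower, 6 with all arrays, was 5 at the threshold of 0.01, with the all-cluster prior, after median centring and with the block, 8 with array weights or among genes above the median level, 7 with the intensity trend, and 5 to 9 with 1 array left out. Dnajb11 and Dnajc3 were the added calls with array weights and above the median level, and Dnajc3 with the intensity trend. Pdia4 did not pass after median centring (adjusted p = 0.051), with the all-cluster prior (0.137) or in the block (0.0814). The deviations of same-numbered arrays from their group means correlated at 0.07, -0.23 and -0.33. Because the deviations of a group cancel, these correlations are tied to one another and cannot show whether the numbers mark pairs. Between arrays of different number the correlations ran from -0.32 (Fasted 1 with Refed 2) to 0.45 (Fasted 3 with Refed 2). Whether arrays of different number share a batch was not tested. With the number as a replicate block 457 genes and 5 members were called.

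For the lists, the calls lower with the all-cluster prior were 0 for oxidative folding, 0 for lectin chaperones, 1 for other BiP co-chaperones, 4 for cytosolic and mitochondrial relatives, 0 for secretory relatives, 3 for ER-associated degradation and 2 for the translocon. At the threshold of 0.01 they were 0 for oxidative folding, 0 for lectin chaperones, 4 for cytosolic and mitochondrial relatives and 2 for the translocon. After median centring they were 2 for oxidative folding and 1 for lectin chaperones. In the replicate block they were 2 for oxidative folding, 0 for lectin chaperones and 3 for the translocon. Without both Fasted 3 and Refed 2 they were 2 for oxidative folding, 1 for lectin chaperones and 3 for ER-associated degradation, and 1 translocon gene was called higher. UPR sensors and factors had 5 calls with array weights or quantile normalisation and 6 among genes above the median level or with the intensity trend. With 1 array left out, the counts ran from 0 to 5 for oxidative folding, 0 to 2 for lectin chaperones, 4 to 8 for cytosolic and mitochondrial relatives, 3 to 6 for ER-associated degradation and 2 to 8 for the translocon. Fewer arrays also give less power, and the cause of each lost call was not tested.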
